A study of Mus musculus with 2 samples.

Results

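The genes described here are 51 genes of the mitotic spindle, the kinetochore and cytokinesis, of the 18193 genes that the array annotation names. A probe set, the group of short oligonucleotides that reads one transcript, was taken when the platform annotation gave exactly 1 gene and that gene was one of the 51. This gave 118 probe sets, and every one of the 51 genes had at least 1. Each was measured on Affymetrix Mouse Genome 430 2.0 arrays, 1 hybridised with RNA from a wild-type mouse and 1 with RNA from a mouse labelled K14CreER:Rosa-VEGF-164, whose VEGF-164 transgene is intended to be switched on by a tamoxifen-dependent Cre driven by the keratin 14 promoter of basal epidermis. The second array is called VEGF-labelled, after its sample label. Both animals had been given the carcinogen DMBA on postnatal days 23, 25 and 27, then repeated doses of the tumour promoter TPA, and DMBA again at 7 weeks of age. Living CD34-positive epithelial cells were sorted from the resulting skin tumours, and 100 ng of total RNA was amplified and labelled for each array. The labels do not say whether tumours or animals were pooled, nor give an age at collection.

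In mitosis, kinetochores assembled on centromeres attach each chromosome to spindle microtubules. A checkpoint holds back the anaphase-promoting complex until all chromosomes are attached, after which cohesin is cleaved and the chromatids part. The central spindle and a contractile ring then divide the cell. Transcripts of most of these genes accumulate in late S phase, G2 and mitosis, so their level in a bulk sample follows the share of cells in those phases. In such a sample more cycling cells and more RNA per cycling cell cannot be told apart.

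Mitosis genes were modestly and broadly higher on the VEGF-labelled array. Each gene is given by its brightest probe set, the one whose mean log2 signal was highest, and each log2 ratio sets the VEGF-labelled sample over wild type. The background level of an array was the 90th percentile of the signals of 80 probe sets for receptor genes of smell and of the vomeronasal organ, 19.9 for wild type and 11.3 for the VEGF-labelled sample. Of the 51 genes, 50 lay above it on both arrays, and Kif15, a spindle kinesin gene, lay below it on both (signals 11.7 in wild type and 10.3 in the VEGF-labelled sample) and got no ratio. Of the 50, 47 had a log2 ratio above 0, against 46.8% of 11232 genes with signals above background on each array. Their median log2 ratio was 0.52, and the middle of the distribution ran from 0.23 (lower quartile) to 0.71 (upper quartile), against a median of -0.04 over all those genes, with quartiles of -0.41 and 0.29. At least 1.5-fold higher were 19 of the 50, against 11.1% of all genes, and at least 2-fold higher were 7, against 3.43%. No member was 1.5-fold lower, where 17.5% of all genes were, and none was 2-fold lower, where 6.66% were.

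There was 1 array per genotype, so there is no replicate error, no test and no p-value, and the number of arrays limits the precision. The one error these data hold is how far probe sets for one gene disagree. The SD of one probe set's ratio (log2 scale), from the difference between the 2 brightest probe sets of a gene divided by the square root of 2, was 0.50, 0.42 and 0.32 in the lowest, middle and highest tertile of signal over 4885 genes, and 0.40 over the 27 members with at least 2 probe sets above background. The tertiles of the 4885 genes were set separately from those of the 11232, and each gene took the SD of the like-named tertile. The ratio of 30 of the 50 members was larger in size than that SD, each of them above 0, where 44.8% of all genes exceeded it in either direction. Above 2 SDs were 11 members, and 6.21% of all genes. It does not include the spread between animals, tumours, sorts or labelling reactions. Ratios also varied with signal over all genes, with a median of -0.31 in the lowest tertile, 0.04 in the middle and 0.05 in the highest. Of the 50 members 4 lay in the lowest tertile, 22 in the middle and 24 in the highest, with medians of 0.39, 0.56 and 0.44. At least 1.5-fold higher were 40.9% of the members and 14.3% of all genes in the middle tertile, and 37.5% of the members and 10.4% of all genes in the highest.

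**Figure D1:**
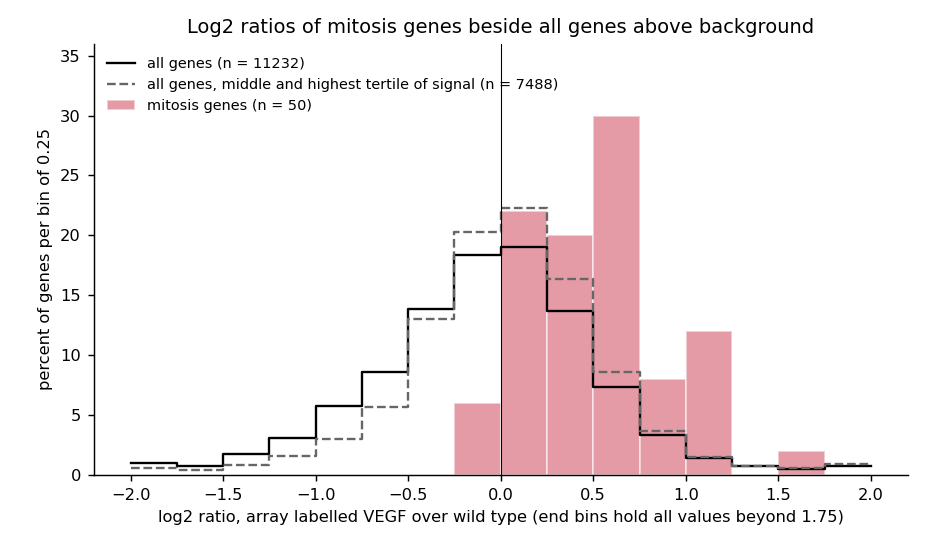
Share of genes (vertical axis, percent per bin of 0.25) by log2 ratio of the VEGF-labelled array over wild type (horizontal axis), for the 50 mitosis genes above background (red bars), all 11232 genes (solid line) and the genes in the middle and highest tertile of signal (dashed line). The red bars lie almost wholly to the right of 0, with 47 of 50 genes above it, while both lines centre close to 0.

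The arrays share one global scale by their 2% trimmed mean, 100.04 on each. Their median signals differed, at 22.6 in wild type and 17.2 in the VEGF-labelled sample. The sorted cells had the keratinocyte signature the sort implies on both arrays, with all 7 basal keratinocyte markers above background. Their summed signal was 29460.4 in wild type and 26488.7 in the VEGF-labelled sample, but single markers moved in opposite directions. The VEGF-labelled signal was higher for 3, among them Dst (756 and 1095) and Itgb4 (856 and 997). It was lower for 4, among them Itga6 (3952 and 2421) and Trp63 (2706 and 1587). Markers of other cell types also differed: the summed signal of 8 fibroblast markers was 1214 in wild type and 2702 in the VEGF-labelled sample, with 7 and 8 of them above background. Of these 8, 5 had the higher signal in the VEGF-labelled sample, and Col3a1 (490 and 1235) and Col1a2 (324 and 942) made up most of the sum, while Dcn (91.3 and 72.3), Thy1 (58.1 and 25.1) and Pdgfrb (36.8 and 34.9) had the lower. For 9 markers of differentiating keratinocytes the sum was 11523 and 13828 (8 above background on each), carried by Krtdap (7354 and 6754) and Krt10 (2525 and 2736). Within this list 7 had the higher signal in the VEGF-labelled sample, among them Tgm3 (105 and 745), Cnfn (65.5 and 349), Krt1 (382 and 1124), Lor (43.7 and 157) and Sbsn (918 and 1839). The sums for 6 melanocyte markers were 391 and 188 (4 and 5 above) and for 9 leukocyte markers 174 and 162 (4 above on each). For 8 endothelial markers they were 143 and 161 (3 and 5 above) and for 5 muscle markers 152.0 and 64.1 (3 and 2 above). The counts above background rest on levels that differ between the arrays. All 6 melanocyte and all 5 muscle markers had the lower signal in the VEGF-labelled sample, including Mlana (18.2 and 15.3), above background there alone. Of the leukocyte markers 4 had the higher signal there and 5 the lower, and of the endothelial markers 3 and 5. The leukocyte markers Cd68, Csf1r and Lyz2 were above background on both arrays. The pan-leukocyte gene Ptprc (14.4 and 17.3) was above it on the VEGF-labelled array alone and Adgre1 (22.3 and 2.41) on the wild-type array alone. The lymphocyte genes Cd3e, Cd3d and Cd79a and the myeloid gene Itgam were below it on both. The part of any of these cells in the values of the mitosis genes was not tested. Vegfa had signals of 804 in wild type and 397 in the VEGF-labelled sample (log2 ratio -1.02), and 302 and 127 (-1.26) by its other probe set. It is not known here whether these probe sets read the transgene, so the genotype is given as the label states it.

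Promoters were searched for 2 motifs already known from genes of mitosis, so their frequency in these genes is not an independent result. Many genes of G2 and mitosis are known to carry a cell cycle genes homology region (CHR), a short element bound by MuvB-containing complexes such as DREAM, together with CCAAT boxes bound by NF-Y. RefSeq promoter windows (GRCm38.p6, 250 bases before and 50 after each annotated start) were found for 45 of the 51 genes, 51 windows in all, some of which overlap because they belong to neighbouring starts of one gene. They were searched on both strands for the CHR letters TTTGAA and for the CCAAT letters. TTTGAA was found in 70.6% of the members' windows, against 11.8% of the 11684 windows of genes above background on each array and 17.9% of all 32851 windows. CCAAT was found in 72.5% of the members' windows, against 37.0% and 37.4%, and both motifs in 56.9%, against 4.66% and 6.95%. The median GC content was 59.0% in the members' windows and 61.0% in those of all genes above background. No member's window held overlapping matches of the 2 motifs.

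The TTTGAA matches were gathered near the start. Matches were counted per window, so a site in overlapping windows of one gene, such as Bub3, Cep55, Ect2 or Prc1, counts more than once. Of the 45 TTTGAA matches in the members' windows 33 (73.3%) had their centre between 75 bases before and 50 bases after the start, where 31.1% of the matches of all genes above background lay. CCAAT matches of the members were most frequent in the 75 bases before the start, but those of all genes above background also gathered there. Between 75 bases before and 50 after the start lay 54.2% of the members' CCAAT matches and 44.0% of those of all genes above background. The fullest bin of the latter ran from 75 to 50 bases before the start, with 15.4% of the matches. A match is a description of letters, not a shown binding site.

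**Figure D2:**
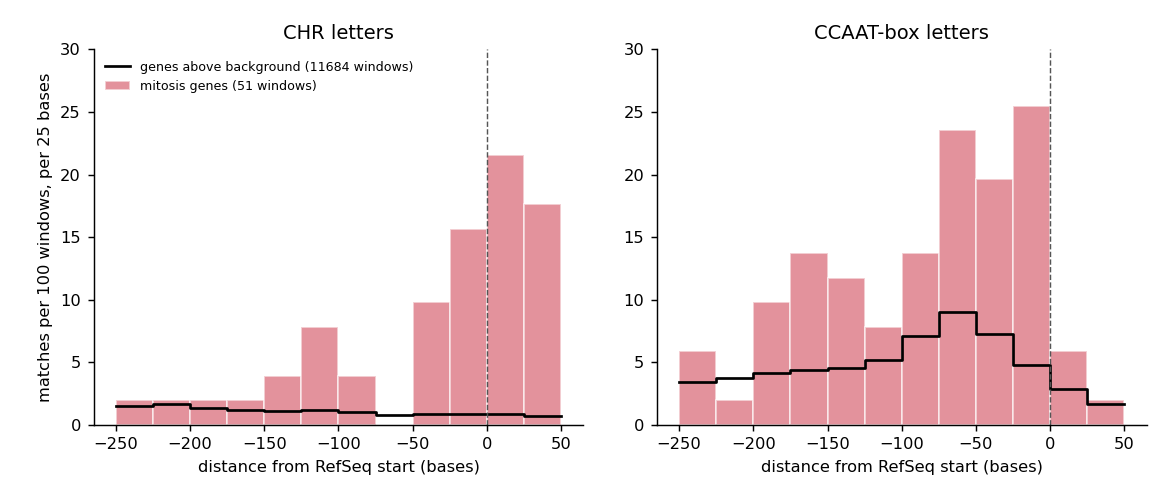
Matches of the CHR letters TTTGAA (left) and of CCAAT (right), both strands, per 100 promoter windows (vertical axis) in bins of 25 bases by distance from the RefSeq start (horizontal axis, dashed line at the start), for the 51 windows of mitosis genes (red bars) and the 11684 windows of genes above background (black line). The red bars of TTTGAA are highest around the start, where the black line stays below 1. Those of CCAAT are highest in the 25 bases before it, while the black line of CCAAT peaks from 75 to 50 bases before it.

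The stretches below are the 120 bases before the start of 8 members with 1 window each. They were chosen after their values were seen to show the letters in genes of large, middling and small ratio. They therefore do not give the share of members with both motifs in these 120 bases. Of the members' TTTGAA matches 11 had their centre within 25 bases after the start and 9 from 25 to 50 bases after it, outside such stretches. They are written 5′ to 3′ on the gene's strand, with the CHR letters (TTTGAA, or TTCAAA where the match is on the other strand) and the CCAAT letters (ATTGG on the other strand) in capitals. In GRCm38.p6 they lie as follows: Cenpn at chr8:116921620-116921739 (plus strand), Nek2 at chr1:191821353-191821472 (plus strand), Mad2l1 at chr6:66535101-66535220 (plus strand), Cdc20 at chr4:118437344-118437463 (minus strand), Ube2c at chr2:164769809-164769928 (plus strand), Espl1 at chr15:102296173-102296292 (plus strand), Top2a at chr11:99024190-99024309 (minus strand) and Kif11 at chr19:37376262-37376381 (plus strand).
Cenpn: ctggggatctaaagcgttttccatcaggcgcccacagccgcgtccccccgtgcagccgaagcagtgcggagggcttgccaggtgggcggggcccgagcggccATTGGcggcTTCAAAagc
Nek2: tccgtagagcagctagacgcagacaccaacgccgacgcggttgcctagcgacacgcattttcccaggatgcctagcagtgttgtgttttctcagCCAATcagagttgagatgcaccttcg
Mad2l1: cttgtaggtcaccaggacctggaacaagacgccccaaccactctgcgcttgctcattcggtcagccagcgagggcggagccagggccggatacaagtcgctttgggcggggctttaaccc
Cdc20: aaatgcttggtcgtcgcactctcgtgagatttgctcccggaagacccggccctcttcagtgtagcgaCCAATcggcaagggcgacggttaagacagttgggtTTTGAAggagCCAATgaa
Ube2c: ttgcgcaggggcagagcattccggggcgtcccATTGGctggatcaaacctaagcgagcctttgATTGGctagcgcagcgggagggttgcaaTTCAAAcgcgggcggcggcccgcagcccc
Espl1: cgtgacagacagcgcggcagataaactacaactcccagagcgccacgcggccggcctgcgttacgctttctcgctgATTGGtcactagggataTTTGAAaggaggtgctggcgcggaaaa
Top2a: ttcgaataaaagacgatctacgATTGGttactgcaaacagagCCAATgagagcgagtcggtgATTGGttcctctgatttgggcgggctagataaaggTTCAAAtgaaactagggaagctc
Kif11: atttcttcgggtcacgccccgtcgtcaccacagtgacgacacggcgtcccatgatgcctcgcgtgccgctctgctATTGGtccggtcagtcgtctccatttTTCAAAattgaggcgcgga
Cenpn, at least 2-fold higher, held both motifs in this stretch, Nek2 held CCAAT only, and Mad2l1, the member with the largest ratio, held neither in its whole window. Top2a and Kif11, under 1.5-fold higher, held both. The 31 measured members with a TTTGAA match had a median log2 ratio of 0.51 (from -0.06 to 1.16) and the 13 without one 0.60 (from -0.05 to 1.51). By CCAAT the order was the other way, with 0.54 for the 32 members with a match (from -0.06 to 1.16) and 0.37 for the 12 without (from -0.05 to 1.51). With both motifs the median was 0.52 (26 members) and with neither 0.46 (7 members), and the ranges overlapped in each case.

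The mitotic kinase genes had ratios above 0 in 5 of 5 cases, with a median log2 ratio of 0.71 and 4 at least 1.5-fold higher. Nek2, whose kinase separates centrosomes, had signals of 113 in wild type and 253 in the VEGF-labelled sample, a log2 ratio of 1.16, and its next probe set gave 1.17. This was among the closest agreements between probe sets of one member. Ttk, the kinase gene that starts checkpoint signalling at unattached kinetochores, had signals of 102 and 179 (log2 ratio 0.82). Plk1, the polo-like kinase gene that drives centrosome maturation and kinetochore assembly, had 216 and 353 (0.71). Aurkb, the kinase gene of the chromosomal passenger complex, had 128 and 202 (0.66), with 0.84 from its other probe set. Aurka, whose kinase acts at centrosomes and on the spindle, had 158 and 236 (0.58), the smallest ratio of the kinases and just under 1.5-fold.

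Among the 8 genes of the checkpoint and of anaphase onset, 8 had a ratio above 0 and 4 were at least 1.5-fold higher. Mad2l1 encodes MAD2, the checkpoint protein that binds and inhibits CDC20. Its signal was 388 in wild type and 1102 in the VEGF-labelled sample, 2.84-fold higher, the largest difference among the 50 members, read by a single probe set. Bub1, a kinase gene of the same checkpoint, had signals of 198 and 390.2, 1.98-fold higher. Bub1b and Bub3 were closer to equal by their brightest probe sets. Bub1b, which encodes BUBR1, had 122 and 131 (log2 ratio 0.11, and 0.55 from its other probe set), and Bub3, which encodes the partner that brings BUB1 and BUBR1 to kinetochores, had 1022 and 1243 (0.28). The 2 dimmer Bub3 probe sets above background went the other way, at -0.73 and -0.21.

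Genes that act once the checkpoint is satisfied were higher by similar amounts. Cdc20, the activator of the anaphase-promoting complex and the target of MAD2, had signals of 1628 in wild type and 2506 in the VEGF-labelled sample, a log2 ratio of 0.62, and its other probe sets gave 0.92 and 0.93. Ube2c, the ubiquitin-conjugating enzyme of that complex, had 857 and 1273 (0.57). Pttg1, which encodes securin, the inhibitor of separase that this complex destroys, had 1010.15 and 1835 (0.86), with 1.15 from a further probe set and -0.63 from the dimmest one (37.8 and 24.4). Espl1, which encodes separase itself, had 55.6 and 83.2 (0.58). Inhibitor and protease genes of this step thus had ratios on the same side of 0.

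The chromosomal passenger complex corrects faulty attachments and later acts in cytokinesis. Birc5, which encodes survivin, had signals of 565 in wild type and 858 in the VEGF-labelled sample, 1.52-fold higher by its single probe set. Incenp, which encodes the scaffold that activates Aurora B, had 743 and 840.3 (log2 ratio 0.18) by a probe set of the kind (ending in _x_at) that can bind several transcripts. Its probe sets disagreed: one gave 0.83 (122 and 217), another -0.03, and a further one was above background on the wild-type array alone (48.0 and 10.4, at least 4.23-fold lower). The direction for Incenp is therefore unsettled, while Birc5, Aurkb and Cdca8, which encodes the remaining subunit borealin (523 and 768, log2 ratio 0.55), all had ratios above 0.5. The 2 Aurkb probe sets end in _x_at and _s_at, so Aurkb had no value once these kinds were left out. The brightest Cdca8 probe set ends in _s_at, and its others gave 0.73 and 0.74.

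Kinetochore genes were the most divided, with 9 of 11 above 0, a median log2 ratio of 0.32 (0.20 with each gene's probe-set median) and 3 at least 1.5-fold higher. The inner kinetochore genes Cenph, Cenpi, Cenpk and Cenpn, subunits of the constitutive network that sits on centromeric chromatin, had log2 ratios between 0.32 and 1.05. Cenph had signals of 60.5 in wild type and 126 in the VEGF-labelled sample (2.08-fold higher), and Cenpn 105 and 215 (2.05-fold, with a log2 ratio of 0.42 from its other probe set). Cenpi had 35.5 and 62.5 (log2 ratio 0.82), the dimmest measured member on the wild-type array, and Cenpk had 129 and 161 (0.32). The genes of the NDC80 complex, the outer kinetochore's main microtubule coupler, were close to equal, with a median of 0.08. Spc24 had 211 and 195 (-0.11), Nuf2 124 and 119 (-0.05) and Ndc80 47.5 and 54.7 (0.20). Spc25, with 126 and 182 (0.53, but -0.59 from its other probe set), was the exception in this complex. Of the 11 kinetochore and centromere genes, Cenph and Cenpn had ratios above 2 SDs.

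Of the remaining centromere genes, Cenpf had a ratio near the median member's and Cenpa and Cenpe had smaller ones. Cenpa, which encodes the centromeric histone H3 variant, had signals of 482 in wild type and 602 in the VEGF-labelled sample (log2 ratio 0.32), while its dimmer probe set gave -1.14 (49.97 and 22.7), the only member probe set with a ratio on both arrays that was at least 2-fold lower. Cenpe, a kinesin gene of chromosome congression, had 241 and 263 (0.13, and -0.03 from its other probe set). Cenpf, a large kinetochore and nuclear matrix protein gene, had 172 and 252 (0.56), with 0.09 and 0.51 from its others.

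**Figure D3:**
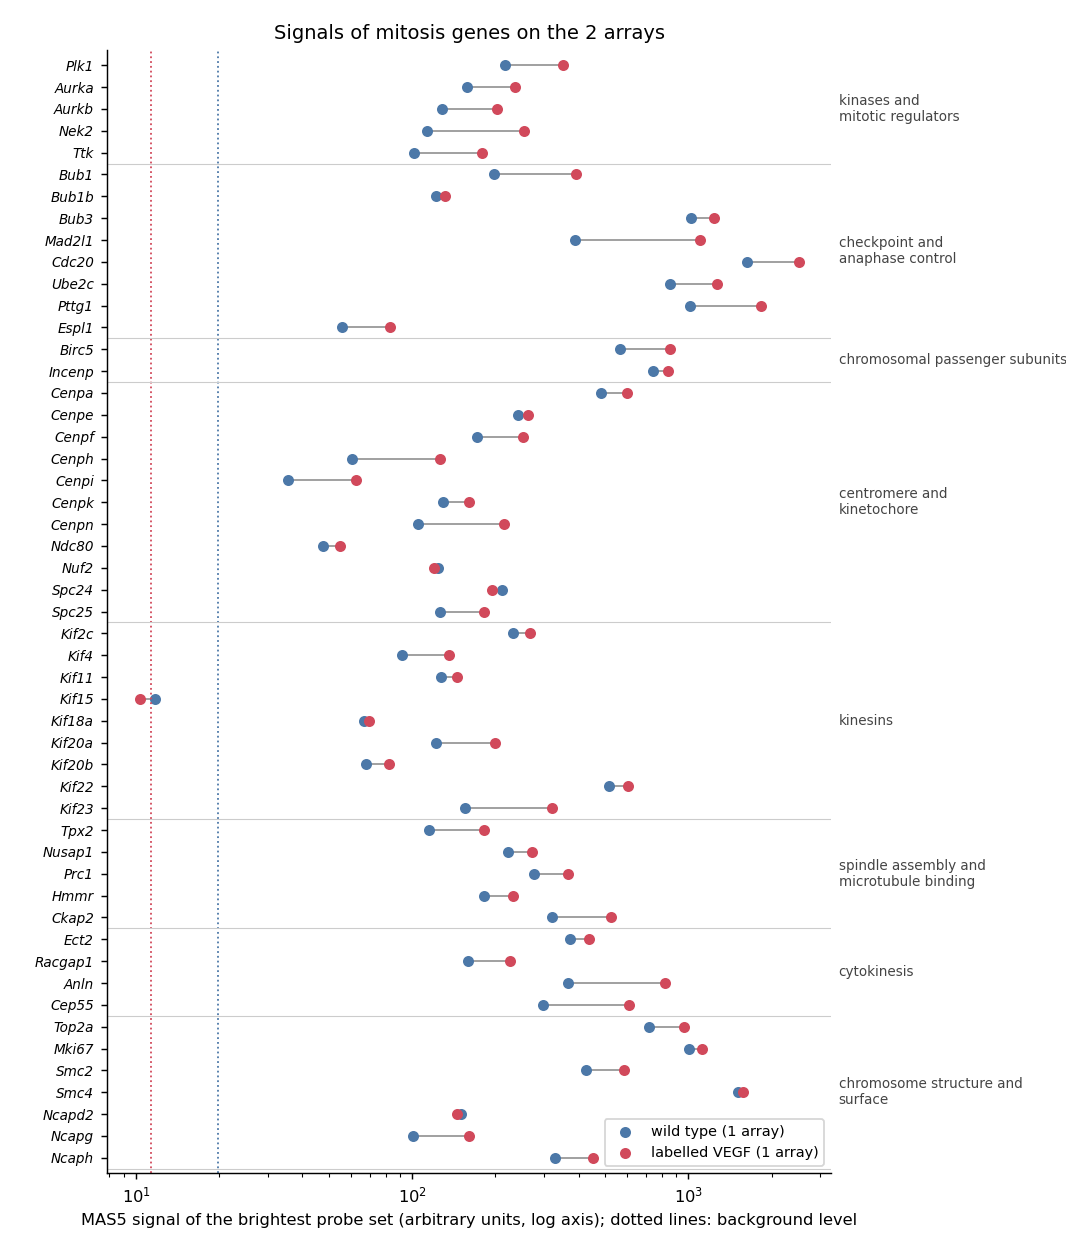
Signal of each mitosis gene's brightest probe set (horizontal axis, MAS5 signal in arbitrary units on a log axis) on the wild-type array (blue) and the VEGF-labelled array (red), 1 array each, grouped by role. The red point lies to the right for 47 of the 50 genes above both background levels (dotted lines, 19.9 in blue and 11.3 in red), with the widest gap for Mad2l1 (388 and 1102), and Kif15 lies below its background level on each array.

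Kinesin genes had a median log2 ratio of 0.25 by their brightest probe sets, with 8 of 8 measured above 0 and 2 at least 1.5-fold higher. This value turned on the probe sets used: it was 0.60 with each gene's probe-set median and 0.60 without _x_at and _s_at probe sets, so the place of the kinesins among the roles is unsettled. Kif23, the motor subunit gene of centralspindlin, which bundles microtubules of the midzone, had signals of 155 in wild type and 321 in the VEGF-labelled sample. It was 2.06-fold higher, and its other probe set gave a log2 ratio of 1.24. Kif20a, a midzone kinesin gene needed for abscission, had 121 and 199 (0.71). Kif4, a chromosome-associated kinesin gene, had 91.9 and 135 (0.56).

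The brightest probe sets of the other kinesin genes gave ratios near 0. Kif11, the kinesin-5 gene that pushes spindle poles apart, had signals of 127 in wild type and 146 in the VEGF-labelled sample (log2 ratio 0.20, others -0.08 and 0.55). Kif18a, which limits chromosome oscillations, had 66.9 and 69.9 (0.06), and Kif20b 68.2 and 82.4 (0.27, other 0.85). Kif2c, a microtubule-depolymerising kinesin gene, had 231 and 268 (0.21), and Kif22, a chromosome-arm kinesin gene, 515 and 602 (0.23). For these last 2 the brightest probe set was one ending in _x_at, and the further probe sets gave 0.72 and 0.83 for Kif2c and 0.65 and 0.83 for Kif22.

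All 5 genes of spindle assembly and microtubule binding had ratios above 0, with a median log2 ratio of 0.42. Ckap2, a spindle-associated protein gene, had signals of 320.3 in wild type and 523 in the VEGF-labelled sample (log2 ratio 0.71). Tpx2, which activates Aurora A and nucleates microtubules near chromosomes, had 115 and 181 (0.66, others from -0.19 to 0.83). Prc1, the antiparallel microtubule bundler of the midzone, had 275 and 367 (0.42, other 0.50). Hmmr, a spindle and hyaluronan-binding protein gene, had 182 and 233 (0.36), with others from 0.57 to 1.46, and Nusap1, a microtubule stabiliser gene, had 223 and 271 (0.28).

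Cytokinesis genes had the highest median, a log2 ratio of 0.78, with 2 of 4 at least 2-fold higher. Anln, which encodes the contractile ring scaffold anillin, had signals of 367 in wild type and 823 in the VEGF-labelled sample (2.24-fold higher). Cep55, which recruits the abscission machinery to the midbody, had 296 and 610 (2.06-fold), in each case by the only probe set above background on both arrays. Racgap1, the centralspindlin partner of KIF23, had 159 and 227 (log2 ratio 0.51), and 1.05 from its other probe set. Ect2, the RhoA exchange factor gene that centralspindlin activates, had 372 and 436 (0.23). Anln and Cep55 were above 2 SDs, and Ect2 had the smallest ratio of the 4.

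Genes of chromosome structure and surface had a median log2 ratio of 0.42 (0.15 with each gene's probe-set median), with 6 of 7 above 0. At least 1.5-fold higher was 1 of the 7 (14.3%), near the 11.1% of all genes. Mki67, the proliferation marker gene whose protein coats mitotic chromosomes, had signals of 1007 in wild type and 1121 in the VEGF-labelled sample (log2 ratio 0.15). Top2a, which encodes the topoisomerase that untangles sister chromatids, had 717 and 961 (0.42), and -0.65 from a dim probe set (50.8 and 32.3). These 2 common proliferation markers thus differed less between the arrays than the median member.

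Condensin I, the ring complex that compacts mitotic chromosomes, was not uniform. Its core ATPase genes were Smc2, with signals of 426 in wild type and 586 in the VEGF-labelled sample (log2 ratio 0.46, others from 0.75 to 1.21), and Smc4, with 1515 and 1577 (0.06, others 0.13 and 0.13). Smc4 was nearly equal by each of its 3 probe sets, whereas each of 4 Smc2 probe sets lay above 0.4. Of the regulatory subunit genes, Ncapg had 100.3 and 161 (0.68, but 0.08 from its other probe set), Ncaph 328 and 451 (0.46, other 0.82) and Ncapd2 151 and 145 (-0.06, other -0.01).

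**Figure D4:**
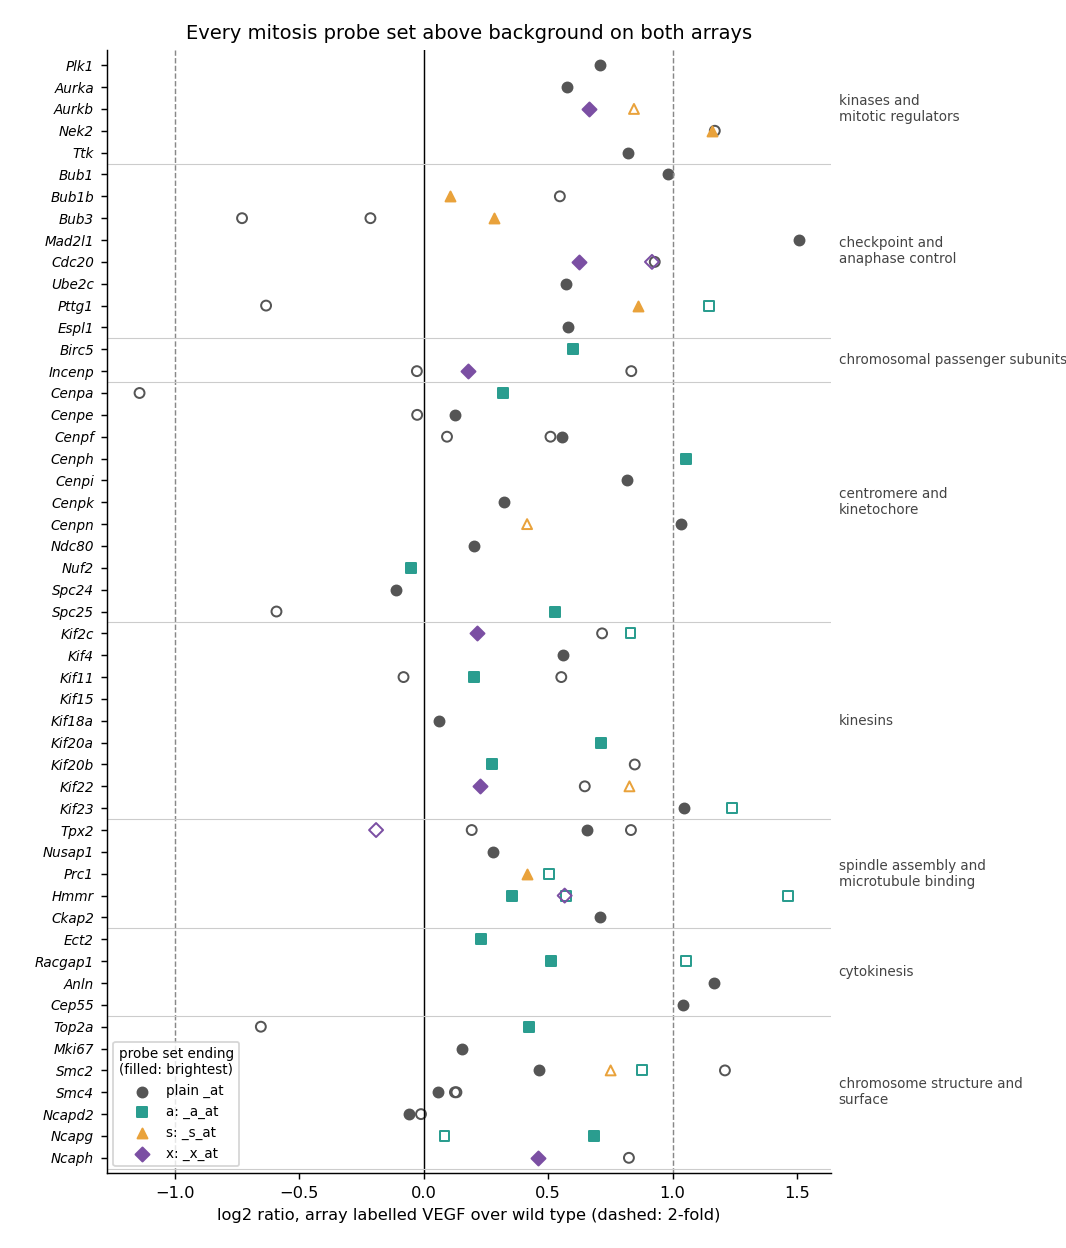
Log2 ratio of the VEGF-labelled array over wild type (horizontal axis, dashed lines at 2-fold) for the 92 mitosis probe sets above background on both arrays, by gene and role, with the shape giving the ending of the probe set name and filled symbols the brightest probe set of a gene. Of the 92, 78 lie above 0, and the points below 0 are mostly open symbols, the dimmer probe sets of their gene.

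Over all 92 member probe sets above background on both arrays, 78 had a log2 ratio above 0 and the median was 0.55, against 44.5% above 0 and a median of -0.07 over all such named probe sets. Dim probe sets behaved differently from bright ones. Among the 75 with a mean signal of at least 50, 6 were below 0 and the lowest was -0.21. Among the 17 dimmer ones, 8 were below 0 and the median was 0.09. A fall with signal was also seen over all genes, by tertiles rather than a split at 50. In the lowest tertile 31.3% of all genes were above 0, against 53.6% in the middle and 55.4% in the highest. Whether the dim member probe sets departed from that trend was not tested. In 21 of the 27 members with at least 2 such probe sets (77.8%) the 2 brightest had the same sign, against 65.6% of 4885 genes. In 18 of the 27 the second brightest gave the higher ratio, so taking the brightest one did not as a rule give the larger value. In 7 of the 27, ratios within the gene spanned more than 1 on the log2 scale.

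Genes of mitosis outside the 51 were examined in lists by function. The 17 genes of mitotic entry and G2/M transcription had a median log2 ratio of 0.55, with 14 above 0, 8 at least 1.5-fold higher and 1, Lin37 (-0.59), lower by that much. Mybl2, the transcription factor gene that joins MuvB at G2/M promoters, was 2.09-fold higher, with signals of 34.9 in wild type and 73.0 in the VEGF-labelled sample. Cdk1, the mitotic kinase gene, had 474 and 914 (0.95). Foxm1, the other main transcription factor gene of these promoters, named after its values were seen, had 91.8 and 92.3 (0.01).

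Of 30 other kinetochore and centromere genes 21 were above 0 and 8 at least 1.5-fold higher, with 1 lower (Nsl1, -0.60) and a median of 0.42. Sgo1, the shugoshin gene that protects centromeric cohesin, was 2.09-fold higher, and Trip13, the gene of the ATPase that remodels MAD2, 2.06-fold. Of 30 other spindle and midzone genes 25 were above 0, 9 at least 1.5-fold higher and 1, Numa1 (-0.63), lower (median 0.39). Fam83d, a spindle protein gene, was 2.69-fold higher and Haus4, an augmin subunit gene, 1.95-fold, while the brightest of the list, the microtubule destabiliser gene Stmn1, had signals of 1626 and 1174 (-0.47). The 27 DNA replication genes had a similar median of 0.51, with 11 at least 1.5-fold higher and 1, Gins3 (-0.86), lower. The genes lower by this much were named after their values were seen. Rrm1, which encodes a subunit of ribonucleotide reductase, was 2.28-fold higher, and Cdc45, of the replicative helicase, 1.94-fold.

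The lists of cohesin and of the anaphase-promoting complex lay near the values of all genes. Cohesin, which holds sister chromatids together from S phase to anaphase, had 5 of 14 genes above 0 and a median of -0.11. Its brightest gene, Rad21, had signals of 2016 in wild type and 1798 in the VEGF-labelled sample. The largest ratio was that of Cdca5, which encodes the cohesin-stabilising protein sororin, with 186 and 351 (log2 ratio 0.91, but 0.21 from its other probe set), while Pds5a, a cohesin regulator gene, had -0.58. Of 15 subunit and partner genes of the anaphase-promoting complex, 9 were above 0 with a median of 0.10, 1 at least 1.5-fold higher (Anapc1, 0.68, but -0.61 to -0.17 from its other probe sets) and 1 lower (Anapc13, -0.59). Its brightest gene, Ube2s, had 0.28.

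The last lists lay between. Of 13 centriole genes 9 were above 0 with a median of 0.16 and 3 at least 1.5-fold higher, among them Plk4, the kinase gene that starts centriole duplication (146 and 274, log2 ratio 0.91), Stil, its partner (0.85), and Poc1a (0.76, named after its values were seen). The 8 genes of condensin II and other chromosome structure had a median of 0.30. At least 1.5-fold higher was 1 (12.5%, near the 11.1% of all genes), Cbx5, a heterochromatin protein gene (0.78, others from -0.48 to 0.52). The lamin gene Lmnb2 followed (0.58), and the brightest, Hmgb2, had 0.09. The difference between any of these lists and the 51 genes was not tested, since there was 1 array per genotype.

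**Figure D5:**
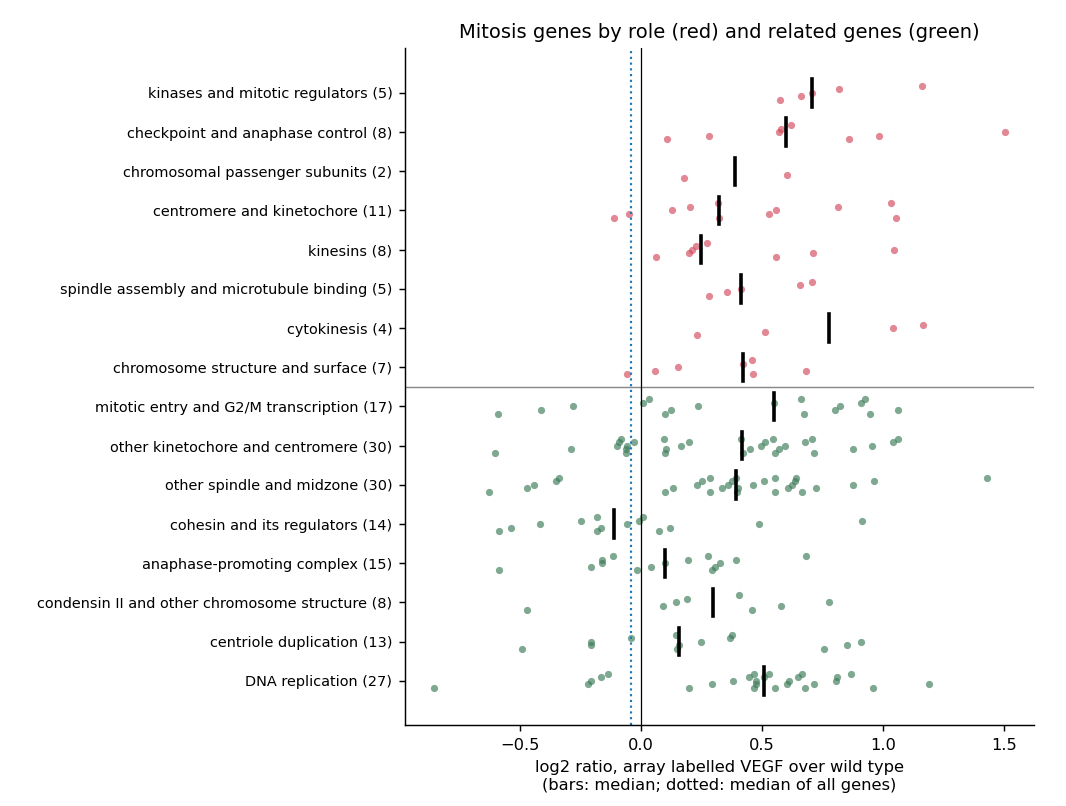
Log2 ratio of the VEGF-labelled array over wild type (horizontal axis) for each measured gene, by role for the mitosis genes (red) and by list for related genes (green), with the number of genes in brackets, black bars at the medians and a dotted line at the median of all genes (-0.04). By the brightest probe sets plotted here, role medians run from 0.25 for kinesins (0.60 with the median over probe sets) to 0.78 for cytokinesis, and among the related lists from -0.11 for cohesin to 0.55 for mitotic entry.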

How the data were processed

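The authors deposited log2 signals made with MAS5, per the submitters' processing notes, a method that treats each array on its own. No version or target of scaling was stated in the sources used here. Of 45101 probe sets, 64 controls were left out and 34945 that the platform annotation gives exactly 1 gene were used, covering 18193 genes. Detection calls were not analysed here. The deposited log2 values were anti-logged for signals and subtracted for ratios, with signals floored at each array's background level. Genes were counted at ratios above 0, at least 1.5-fold and at least 2-fold, with no test, as each genotype had 1 array. The members, lists, motifs and settings were chosen with earlier results of these data known. Every member could be named, and in each related list the 2 largest ratios and the brightest gene; marker lists give sums, and single markers were named after their values were seen. The counting was checked on simulated data. Scripts used Python 3.11.15, and limma 3.58.1 in R 4.3.3 for the quantile and loess alternatives. Promoter sequences are RefSeq's for GRCm38.p6, and the 6 members without a window are Aurkb, Incenp, Kif20a, Smc4, Spc24 and Tpx2.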

Additional observations from a re-analysis of the deposited data

How the results depend on the processing

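Each count and the median of the mitosis genes were recomputed under 10 other settings: 3 other floors, an offset of 50, loess or quantile normalization, ratios centred on their median, a gene's median over its probe sets, leaving out _s_at and _x_at probe sets, and a stricter signal filter. The median stayed between 0.49 (loess) and 0.57 under all but the offset of 50, the genes at least 1.5-fold higher between 18 and 24, and those at least 2-fold higher between 6 and 8. Above 0 were 43 of 50 genes with the median over probe sets and 45 of 49 without _x_at and _s_at probe sets. The stricter filter gave 45 of 48, the offset 51 of 51 and each other setting 47. No setting gave a member at least 1.5-fold lower. With the offset, the median was 0.71 and 33 of 51 genes were at least 1.5-fold higher. That setting matches the array medians, adds the offset and has no floor, so it covers 18193 genes; the parts were not tried singly. The median of all genes was then 0.11, against -0.04 over 11232 as reported, and that of the other genes in the middle and highest tertile of signal 0.36, against 0.05; relative to the latter the members' median was 0.35 higher, against 0.47 as reported. Bub3, Cenpa, Spc25 and Top2a, each under 1.5-fold higher as reported, were below 0 with the median over probe sets (-0.21, -0.41, -0.03 and -0.12). Bub3 was also at -0.21 without _x_at and _s_at probe sets. With 1 array per genotype no replicate could be left out and no paired analysis was possible.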

Other observations

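A further 9 probe sets of the mitosis genes were above background on 1 array only and 17 on neither. Of the 9, 6 were above it in the VEGF-labelled sample and 3 in wild type, whose background level was higher. Cep55 had such a probe set at signals of 4.001 in wild type and 28.9 in the VEGF-labelled sample (at least 1.45-fold higher), Nek2 at 14.4 and 25.0 (at least 1.26-fold) and Anln at 12.8 and 22.1 (at least 1.11-fold), the side of their main probe sets. Ttk (19.5 and 14.2) and Kif2c (17.1 and 12.4) had such probe sets with the lower signal in the VEGF-labelled sample, against the side of theirs, and Hmmr one at 10.4 and 12.0, none of them with a bound above 1. Bub3 and Bub1 had probe sets at least 2.22-fold and 1.79-fold lower (25.2 and 7.58, and 20.3 and 10.7), against the side of theirs, as did Incenp (48.0 and 10.4).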
